A study of Mus musculus with 5 samples.

Results

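The genes described here are 10 genes of the p53 response and of the Cdkn2 locus: Cdkn1a, Mdm2, Ccng1, Trp53inp1, Bax, Sesn2, Perp, Phlda3, Cdkn2a and Cdkn2b. A gene was measured where the array platform's annotation gave it a probe set of its own, and 8 of the 10 were, out of 19938 genes measured in all. Cdkn1a shares its 1 probe set with another gene, so that probe set names neither, and no probe set carried the name Bax. Each of the 8 measured genes had 1 probe set. The study hybridised total RNA of mouse cells to 5 whole-transcript arrays, each of another group. Embryonic stem cells (ESCs) made up the groups 2i ESCs and S ESCs, and embryonic fibroblasts (MEFs) the groups 4n 2i MEFs, 2n 2i MEFs and, last, control MEFs. Every group, the controls included, had the F1 background of 129X1/SvJ X MSM/Ms. Since 2i is the usual name of a medium that inhibits the kinases MEK and GSK3, it is read so here, while the labels leave S, 2n and 4n unexplained. They also give no embryonic age and no culture time, and do not say whether the 4n and 2n 2i MEFs hold cells of a host embryo or come from 1 clone. The titles carry numbers, which start with 15 in 2i ESCs and also in 2n 2i MEFs, with 36 in S ESCs, with 2 in 4n 2i MEFs and with 4 in control MEFs, and the labels do not explain them.

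The tumour suppressor p53 is a transcription factor that is held low by the ubiquitin ligase Mdm2 and accumulates after DNA damage and other stresses. It then switches on genes that stop the cell cycle, repair damage or start apoptosis, and it also switches on Mdm2, which closes a feedback loop. The Cdkn2a gene lies upstream of p53: of its alternative products, p19Arf blocks Mdm2, while p16Ink4a and the neighbouring Cdkn2b product p15Ink4b inhibit the kinases CDK4 and CDK6. In cultured MEFs this locus is known as a gate to senescence, and in ESCs it is usually kept low.

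RefSeq windows of 250 bases before the transcription start (assembly GRCm38.p6) were matched to 8 of the 10 genes, in 10 windows, and Perp and Trp53inp1 were not matched. The first set of sequences shows the consensus p53 half-site, a palindromic motif that p53 binds in pairs. It was chosen since Mdm2 and Ccng1 were lower on the 4n array than on the other MEF arrays. The motif was searched on both strands with no mismatch, and was found in 4 of the 10 windows (Mdm2, Ccng1, Bax and the upstream start of Cdkn1a) and in 7.13% of all 32851 windows. The genes apart from Cdkn2a and Cdkn2b, whose windows held no motif, were listed as genes of the p53 response, so this share carries no test. The Sesn2 window held no motif, though Sesn2 too was lower on the 4n array than on the other MEF arrays. Whether the motif relates to the differences between arrays was not tested. No window of the 10 held a directly adjoining pair of motifs without mismatch, and pairs with a mismatch were not searched. In the stretches shown, the 10 bases after the Cdkn1a motif and the 10 before the Ccng1 motif each differ from the consensus at a single base. The Cdkn1a window held 2 motifs, of which the downstream one is shown. Capitals mark the motif.
Mdm2, chr10:117710925-117710954, minus strand: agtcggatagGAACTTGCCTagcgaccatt
Ccng1, chr11:40755452-40755481, minus strand: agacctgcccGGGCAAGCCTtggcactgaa
Bax, chr7:45467080-45467109, minus strand: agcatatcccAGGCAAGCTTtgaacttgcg
Cdkn1a, chr17:29090918-29090947, plus strand: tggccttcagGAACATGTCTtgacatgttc

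The second set shows the Cdkn2 locus, because Cdkn2a has alternative starts but a single probe set. Which of the Arf and Ink4a transcripts that probe set reads was not examined. The starts lie 12.4 kb apart on chromosome 4. CpG dinucleotides, where mammalian DNA is methylated, are in capitals, as the title of the study speaks of DNA methylation. The upstream window of Cdkn2a holds 40 CpGs, a count reached by 1.31% of all windows. The downstream window holds 7 CpGs and the Cdkn2b window 12, against a median of 6 over all windows. Methylation itself was not analysed here.
Cdkn2a upstream start, chr4:89294620-89294869, minus strand: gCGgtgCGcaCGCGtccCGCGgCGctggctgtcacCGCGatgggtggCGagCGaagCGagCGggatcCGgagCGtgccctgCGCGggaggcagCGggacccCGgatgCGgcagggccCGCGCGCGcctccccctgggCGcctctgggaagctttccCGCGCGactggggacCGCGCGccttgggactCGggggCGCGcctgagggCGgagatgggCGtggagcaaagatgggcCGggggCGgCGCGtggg
Cdkn2a downstream start, chr4:89282193-89282442, minus strand: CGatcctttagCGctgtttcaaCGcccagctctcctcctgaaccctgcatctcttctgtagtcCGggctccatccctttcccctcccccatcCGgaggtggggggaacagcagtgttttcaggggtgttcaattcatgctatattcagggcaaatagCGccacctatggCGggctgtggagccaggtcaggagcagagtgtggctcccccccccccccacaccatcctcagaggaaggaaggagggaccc
Cdkn2b, chr4:89311033-89311282, minus strand: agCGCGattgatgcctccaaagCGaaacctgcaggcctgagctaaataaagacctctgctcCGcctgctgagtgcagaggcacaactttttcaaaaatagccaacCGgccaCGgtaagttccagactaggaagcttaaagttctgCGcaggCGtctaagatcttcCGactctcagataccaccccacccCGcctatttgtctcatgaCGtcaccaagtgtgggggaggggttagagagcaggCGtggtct

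All 8 ESC markers reached the floor, the median intensity of an array's probe sets of 1 gene (221.6 to 242.1 units), on each ESC array and 0 of 8 did on any MEF array. Of 8 fibroblast markers, 3 reached it in 2i ESCs and 4 in S ESCs, against 8 on each MEF array, with summed intensities of 1845 and 2772 units on the ESC arrays and of 46959 to 66303 units on the MEF arrays. Of 8 macrophage markers, 6 were at least 2-fold higher on the 4n array than on either other MEF array, and the summed intensity of all 8 was 16553 units on the 4n array, against 1394 units in 2n 2i MEFs and 1836 units in control MEFs. Lyz2, a macrophage lysozyme, had 5913, 429 and 689 units on these arrays, while Itgam and Cd14 lay under the floor on all 3. The 3 MEF arrays also hold many values that are exactly identical, at 45.4% of probe sets for the 2n and control arrays, 37.4% for the 4n and 2n arrays and 37.9% for the 4n and control arrays. Where MEF arrays differ by 0, this identity of the deposited numbers is thus not taken as a measurement. Groups of 1 array allow no test, so pairs of arrays are described by differences on the log2(intensity + 1) scale, beside the share of all genes that differed at least 2-fold. The number of arrays limits the precision throughout. In these bulk samples fewer cells of a type and less RNA per cell cannot be told apart.

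Among the MEFs, Mdm2 and Ccng1 were lower on the 4n array than on the other MEF arrays, which were nearly equal. Mdm2 (Entrez Gene 17246), the ubiquitin ligase that degrades p53, had 1093 intensity units in 4n 2i MEFs, against 3647 units in 2n 2i MEFs and 3533 units in control MEFs. In 2i ESCs it had 1779 units and in S ESCs 2103 units, so the 4n array was the lowest of all 5. Mdm2 was 3.34-fold lower in 4n than in 2n 2i MEFs (log2 difference -1.74) and 3.23-fold lower than in control MEFs (-1.69). Of 10251 genes compared between the 4n and 2n arrays, 39 (0.38%) were as far down as Mdm2. Of 10271 genes compared with control MEFs, 91 (0.886%) were. Between the 2n and control arrays Mdm2 differed by a log2 of 0.05.

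Ccng1 (Entrez Gene 12450), which encodes cyclin G1, a partner of Mdm2 and phosphatase 2A, had a like order among the MEFs with a smaller size. It had 6658 units in 4n 2i MEFs, against 10012 units in 2n 2i MEFs and 10142 units in control MEFs. The ESC arrays had 6692 units (2i) and 6030 units (S), so the 4n array lay between the ESC arrays. Ccng1 was 1.5-fold lower in 4n than in 2n 2i MEFs (-0.59) and 1.52-fold lower than in control MEFs (-0.61). As many as 10.5% and 10.4% of the genes compared in these pairs were as far down, so the size of this difference is not unusual for these arrays.

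Perp (Entrez Gene 64058), a membrane protein of desmosomes that takes part in p53-dependent apoptosis, varied most among the MEFs. It had 486.2 units in 4n 2i MEFs, 1208 units in 2n 2i MEFs and 2198 units in control MEFs. The 4n array was 2.48-fold below the 2n array (-1.31) and 4.51-fold below the control array (-2.17), where 40 of 10271 genes (0.389%) were as far down. The 2n array was 1.82-fold below the control array (-0.86), which is under the threshold of 2-fold but was reached by only 0.744% of the genes compared in that pair. Of 8 epithelial markers, 3 passed the floor in the 4n comparisons, none of them lower there, and Krt14 was higher in 4n than in 2n 2i MEFs (1.09) and than in control MEFs (2.03). The ESC arrays differed too, with 622.6 units in 2i ESCs against 1505 units in S ESCs, a 2.41-fold deficit in 2i ESCs (-1.27).

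Phlda3 (Entrez Gene 27280), which restrains the kinase Akt at the membrane, was nearly even among the MEFs. It had 3913 units in 4n 2i MEFs and 4196 units on each of the other MEF arrays, whose values are identical. In the ESCs it was lower throughout, with 1664 units in 2i ESCs and 1436 units in S ESCs. All 3 MEF values thus lay above both ESC values.

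**Figure D1:**
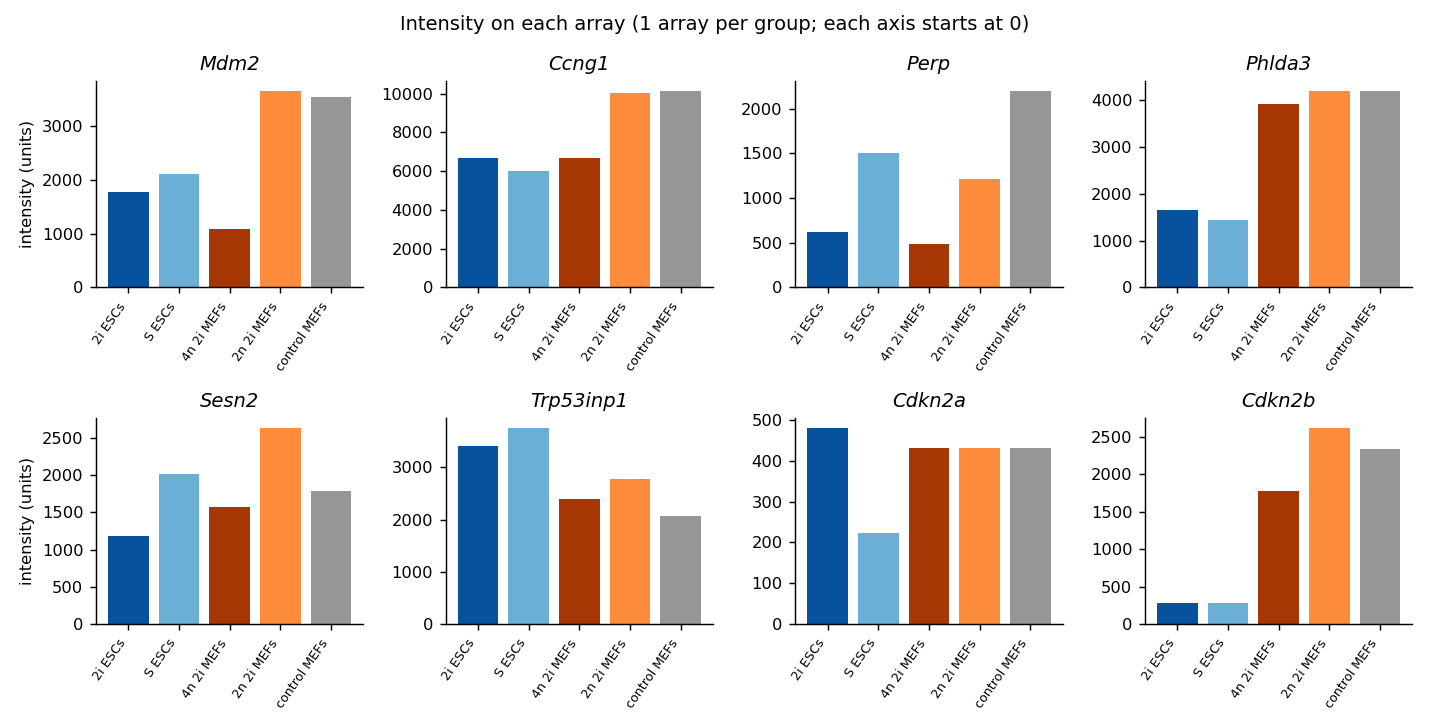
Intensity (units, linear axis from 0, 1 panel and 1 axis per gene) of the 8 measured genes on each of the 5 arrays; a bar is 1 array and carries no error. Mdm2 and Perp are lowest on the 4n 2i MEF array (1093 and 486.2 units), Phlda3 and Cdkn2b are higher on every MEF array than on either ESC array, and Cdkn2a has 431.2 units on all MEF arrays.

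The stress genes followed neither order. Sesn2 (Entrez Gene 230784), a sestrin that restrains the growth kinase complex TORC1, had 1569 units in 4n 2i MEFs, 2638 units in 2n 2i MEFs and 1790 units in control MEFs. Here the 2n array stood out, 1.47-fold above the control array (0.56) and with the 4n array 1.68-fold below it (-0.75). In ESCs Sesn2 had 1181 units (2i) and 2014 units (S), so that 2i ESCs were 1.71-fold lower (-0.77). Trp53inp1 (Entrez Gene 60599), which promotes autophagy and p53-dependent cell death, had 2396 units in 4n 2i MEFs, 2776 units in 2n 2i MEFs and 2074 units in control MEFs. It was highest in the ESCs, at 3415 units (2i) and 3763 units (S). No pair of arrays compared within a cell type differed by 2-fold in either gene.

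Counted together, 2 of the 8 genes (Mdm2 and Perp) were at least 2-fold lower in 4n than in 2n 2i MEFs and none was higher. Over all genes compared, 2.36% were at least 2-fold lower and 3.34% higher. By any amount 7 of the 8 were lower and Cdkn2a was identical, with a median log2 difference of -0.58. Over all genes 54.9% were lower and 33.3% higher, with a median of -0.04. Relative to control MEFs the same count was 2 lower (Perp and Mdm2) and none higher, beside 3.44% lower and 5.28% higher over all genes. There 6 of 8 were lower and 1 (Trp53inp1) higher by any amount, against 51.6% and 36.1% of all genes, and the median was -0.29, against -0.01. These pairs share the 4n array, so they are not separate support for each other. The 8 genes were chosen with earlier results of these data known, so their shares carry no test. Between 2n 2i MEFs and control MEFs none of the 8 differed 2-fold, where 1.49% of all genes were higher and 0.427% lower, and the median was 0.02, against 0.00. By any amount 4 of the 8 were higher and 2 lower there, against 44.8% and 34.7% of all genes. The macrophage markers given above were high on the same 4n array, and their part in these differences was not tested.

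**Figure D2:**
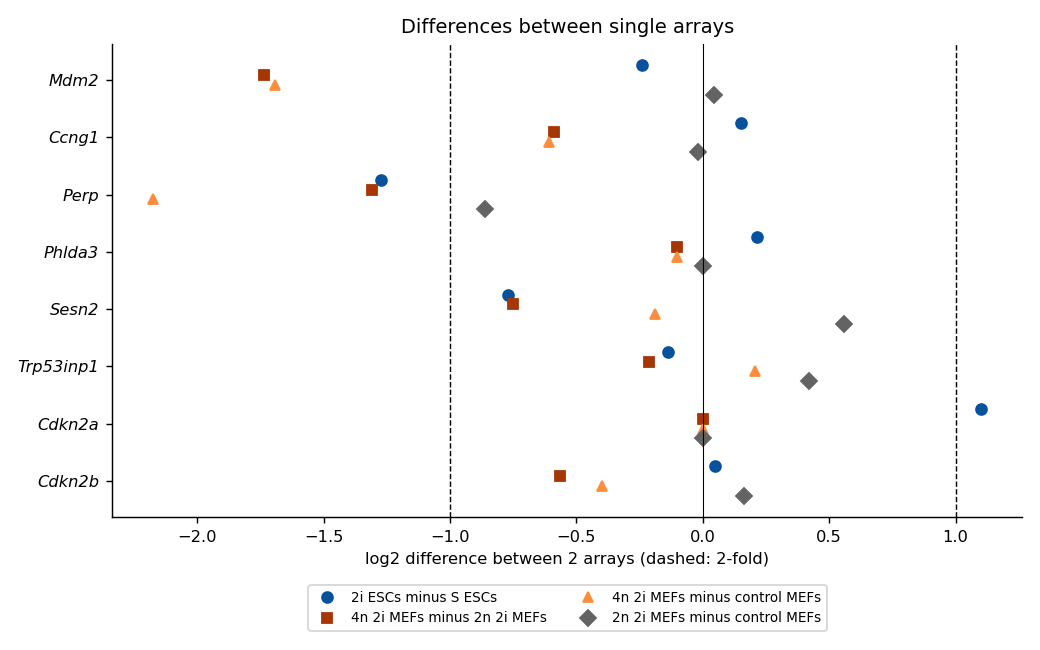
Log2 difference (x axis) of each gene (y axis) in 4 pairs of single arrays, with dashed lines at 2-fold and no error because each group has 1 array. Mdm2 and Perp lie past the lower line in both 4n comparisons, Perp (-1.27) and Cdkn2a (1.10) lie past the lines in 2i minus S ESCs, and no gene does in 2n 2i MEFs minus control MEFs.

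Other targets of p53 were read from a list of 40 genes, all measured, of which 39 passed the floor in the 4n comparisons. The list was chosen with earlier results of these data known, so its shares carry no test. In 4n against 2n 2i MEFs 5 of 39 were at least 2-fold lower (12.8%, against 2.36% of all genes) and none was higher, and 27 were lower by any amount. They were Plk2 (log2 difference -1.45), a kinase of the centrosome cycle, Gtse1 (-1.44), which shuttles p53 out of the nucleus, the antiproliferative Btg2 (-1.14), the stress kinase Plk3 (-1.13) and the spindle protein gene Ckap2 (-1.05). The list's median was -0.24, against -0.04 over all genes. Ckap2 was named after its value was seen. Btg2 had 955.5 units in 4n, 2104 units in 2n and 1035 units in control MEFs, so the 2n array stood out. It was the 1 of 39 targets at least 2-fold higher in 2n 2i than in control MEFs (1.02), and none was lower. That share was 2.56%, against 1.49% of all genes.

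Relative to control MEFs, 5 of the 39 were at least 2-fold lower on the 4n array (12.8%, against 3.44% of all genes) and 3 were higher (7.69%, against 5.28%). The lower ones were Plk3 (-1.54), Gtse1 (-1.33), Plk2 (-1.26), the translesion polymerase gene Polk (-1.21) and the RNA-binding Zmat3 (-1.07), the last pair named after their values were seen. The higher ones were the growth arrest gene Gadd45a (1.34), the sestrin gene Sesn1 (1.17) and Tspan11 (1.08), of which Sesn1 and Tspan11 were named after their values were seen. The list's median was -0.35, against -0.01 over all genes, with 28 lower and 7 higher by any amount. In intensity Plk2 had 908.3 units in 4n 2i MEFs, against 2475 units in 2n 2i MEFs and 2178 units in control MEFs. Gadd45a had 1096, 746.2 and 431 units on the same arrays, so the targets did not go one way. Gtse1 and Ckap2 are known as mitotic genes as well. Proliferation markers, 11 measured of 12, were all lower in 4n than in 2n 2i MEFs (median -0.58), 1 of them 2-fold (Mki67 at -1.07). Relative to control MEFs 10 of the 11 were lower in 4n 2i MEFs (median -0.14), none of them 2-fold. All 11 markers were higher in 2n 2i MEFs than in control MEFs (median 0.43). Their part in the targets' deficits was not tested.

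**Figure D3:**
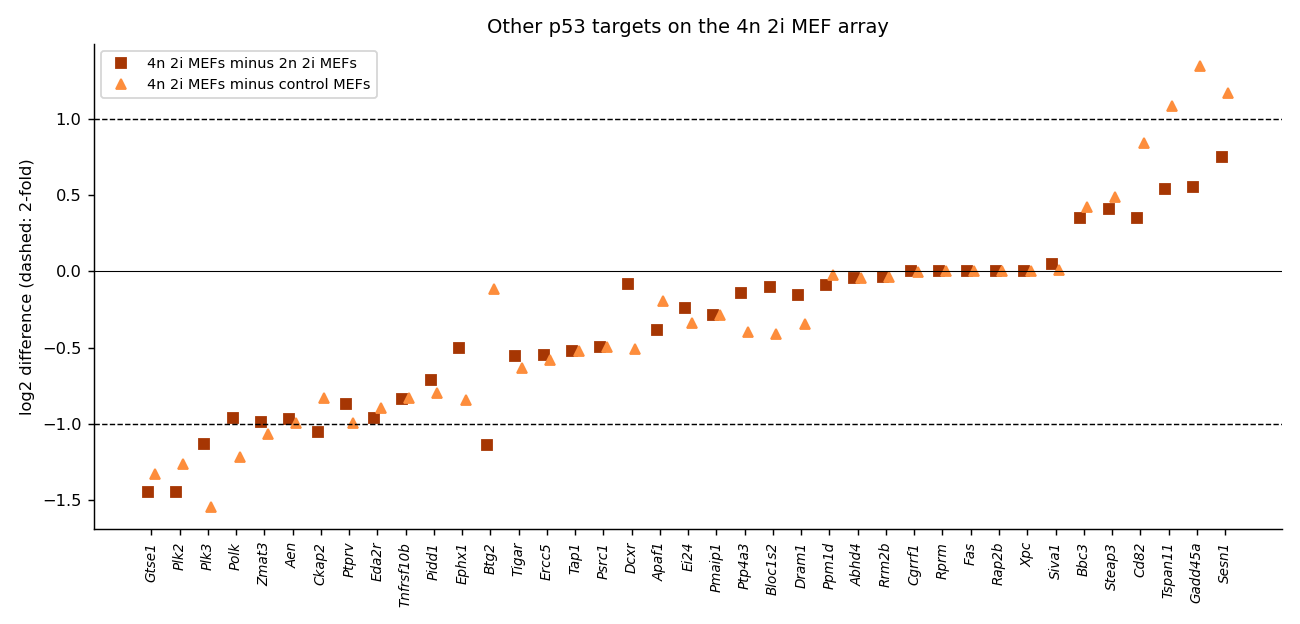
Log2 difference (y axis, dashed lines at 2-fold) of the 39 other p53 targets past the floor (x axis, sorted by the mean of both differences), on the 4n 2i MEF array minus the 2n 2i MEF array (squares) and minus the control MEF array (triangles), 1 array per group and no error. Gtse1, Plk2 and Plk3 lie past the lower line in both, and Gadd45a, Sesn1 and Tspan11 past the upper line against control MEFs.

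No gene of the machinery around p53 differed by 2-fold in a MEF pair, where 0.427% to 5.28% of all genes did in either direction. Of 28 listed genes 25 were measured, with Trp53 itself not among them, and 22 to 23 passed the floor. With so few genes a count of 0 is near those shares. In 4n against 2n 2i MEFs 17 of 23 were lower and 3 higher by any amount (median -0.22, against -0.04 over all genes). Relative to control MEFs 16 of 22 were lower and 3 higher (median -0.15, against -0.01). Mdm4, the Mdm2 relative that masks p53, had 741.6 units on all 3 MEF arrays and was named after its values were seen. The largest differences between the 4n and 2n arrays were in the repair gene Brca1 (-0.85), the mitotic kinase gene Aurka (-0.78) and the checkpoint kinase genes Atr (-0.65) and Chek1 (-0.64). Of 12 genes of the BCL2 family past the floor, 1 was at least 2-fold higher in each 4n comparison and none lower. This was 8.33%, against 3.34% of all genes in 4n against 2n 2i MEFs and 5.28% in 4n against control MEFs. The gene was the proapoptotic Bmf. It had 567.6 units in 4n 2i MEFs, against 257.7 units in 2n 2i MEFs and 225.9 units in control MEFs (1.14 and 1.33). Of 15 stress genes around the sestrins and TORC1, none differed by 2-fold in a MEF pair. Sesn1 was listed with the other p53 targets instead, and was higher in 4n than in control MEFs (1.17). In 2n 2i MEFs against control MEFs 11 of these 15 were higher by any amount and 2 lower (median 0.21), against 44.8% and 34.7% of all genes (median 0.00). The largest differences were in Sesn3 (0.84), Ddit4 (0.72) and Ddit3 (0.54), beside the Sesn2 difference of 0.56.

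Between the ESC arrays, Perp and Cdkn2a differed at least 2-fold. In 2i ESCs Perp was 2.41-fold lower than in S ESCs (-1.27) and Cdkn2a was higher (1.10), which is 1 of 8 genes in each direction. The Cdkn2a value of 223.8 units in S ESCs was under the floor and holds an unknown part of background, so the size of this difference is uncertain, and with the floor at the 75th percentile the gene was not compared. The share of all genes was 2.79% in the higher direction and 2.54% in the lower. By any amount 4 of the 8 were higher and 4 lower, against 45.1% and 54.9% of all genes, and the median was -0.05, against -0.04. Mdm2 (-0.24), Ccng1 (0.15), Trp53inp1 (-0.14), Phlda3 (0.21) and Cdkn2b (0.05) lay close together on the 2 arrays. Of 6 epithelial markers past the floor 3 were at least 2-fold lower in 2i ESCs with Perp, namely Esrp1 (-3.37), Epcam (-1.57) and Krt8 (-1.31), with Esrp1 under the floor in 2i ESCs. Their summed intensity over 8 markers was 12126 units in 2i ESCs and 13995 units in S ESCs, and the desmosome-related keratin gene Krt5 was under the floor on both. Fibroblast markers were low in 2i ESCs too: all 4 past the floor were lower than in S ESCs (median -0.59, against -0.04 over all genes), 1 of them at least 2-fold (Dcn at -1.91, under the floor in 2i ESCs). The part of either marker list in the Perp difference was not tested.

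Of 35 other p53 targets past the floor on the ESC arrays, 1 was at least 2-fold lower in 2i ESCs and none higher. The share lower was 2.86%, near the 2.54% of all genes, and 2.79% of all genes were higher. The lower gene was Plk3, with 819.1 units in 2i ESCs against 1641 units in S ESCs. It did not reach 2-fold with quantile normalization or a pseudocount of 16. The list's median was -0.06, against -0.04 over all genes. Gadd45a (-0.87) and Rap2b (-0.73) were next. Among the sestrin and TORC1 stress genes, Chac1 (-0.97), Trib3 (-0.89), Ddit3 (-0.86) and Mios (-0.80) had the largest differences with Sesn2 (-0.77), none of them 2-fold, and the median of 16 was -0.20. Chac1, Trib3 and Ddit3 are known targets of the stress factor Atf4, which also acts on Sesn2.

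Between the cell types, 2 arrays of ESCs and 3 of MEFs, limma was run across 11826 genes, calling those with a Benjamini-Hochberg adjusted p under 0.05 that differed at least 2-fold. It called 16.6% of genes higher and 16.3% lower in ESCs. Of the 8 genes 2 were lower in ESCs, Cdkn2b and Phlda3, and none was higher. Cdkn2b was 7.76-fold lower, at 8.16 ± 0.03 (log2, SD, n = 2) in ESCs against 11.12 ± 0.29 (SD, n = 3) in MEFs, with a log2 difference of -2.96 ± 0.19 (SE) and a limma adjusted p of 0.0007. Phlda3 was 2.65-fold lower, at 10.60 ± 0.15 (log2, SD, n = 2) in ESCs against 12.00 ± 0.06 (SD, n = 3) in MEFs, a difference of -1.41 ± 0.11 (SE) with a limma adjusted p of 0.000996. Because 2 of its 3 MEF values are the same deposited number, the SD, SE and p of Phlda3 rest in part on that identity, and among genes with distinct MEF values 1 of the 8 genes, Cdkn2b, was called. The spread is that between conditions of a cell type, since no condition was repeated. The labels do not say that samples came from separate cultures or embryos.

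Of the other genes, Trp53inp1 had an adjusted p of 0.0314 in limma at a difference of 0.58 ± 0.15 (SE), below 2-fold, and the adjusted p lay between 0.0308 and 0.175 over the alternatives. Ccng1 (-0.47 ± 0.23, limma adjusted p = 0.142), Sesn2 (-0.34 ± 0.34, limma adjusted p = 0.432), Mdm2 (-0.32 ± 0.61, limma adjusted p = 0.675) and Perp (-0.17 ± 0.77, limma adjusted p = 0.862) did not pass (errors are SE). For Mdm2 the MEF values had an SD of 0.99, with the 4n array the lowest. Without the 4n array the Mdm2 difference was -0.89, with a limma adjusted p of 0.00997, and that of Ccng1 was -0.67, with a limma adjusted p of 0.0121, both still under 2-fold. Over all alternatives the limma adjusted p ran from 0.00997 to 0.98 for Mdm2 and from 0.0121 to 0.438 for Ccng1. The Perp difference lay between -0.81 without the S ESC array and 0.47 without the 2i ESC array, and its limma adjusted p between 0.324 and 0.942 over the alternatives.

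**Figure D4:**
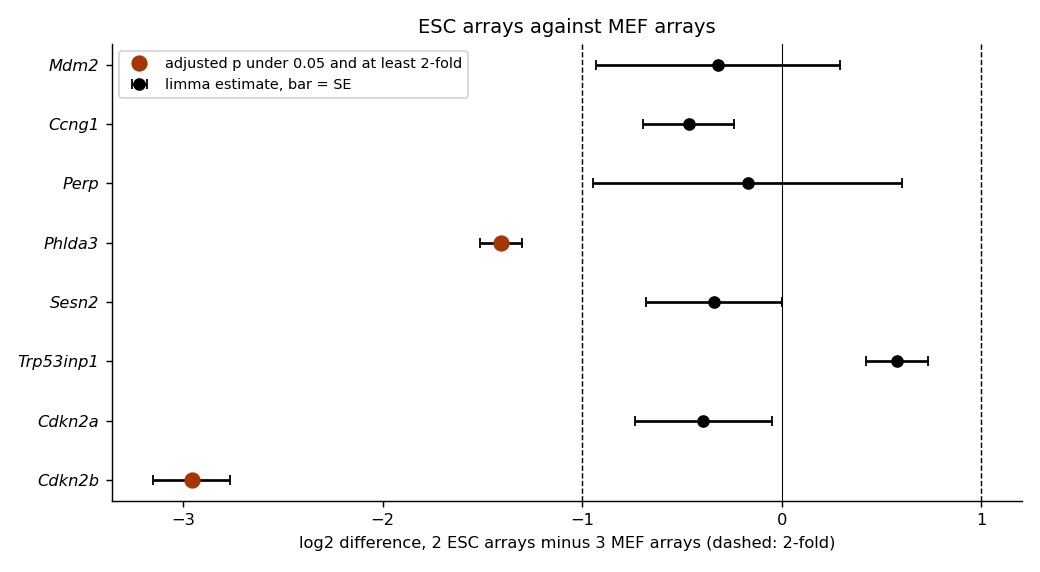
Log2 difference of the 2 ESC arrays minus the 3 MEF arrays (x axis, dashed lines at 2-fold) for each gene (y axis), as the limma estimate with its SE. Cdkn2b (-2.96) and Phlda3 (-1.41) are called lower in ESCs, and the bars of Mdm2 and Perp are the widest (SE 0.61 and 0.77).

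Around these genes the ESC arrays had more of the checkpoint machinery. Of 24 genes of the p53 machinery tested, 12 were higher in ESCs (50%, against 16.6% of all genes) and none lower, with a median of 0.90, against 0.06 over all genes. The largest were Chek1 (2.53), Brca1 (2.50), Chek2 (2.11) and Atr (2.01), of which Brca1, Chek2 and Atr were under the floor on 1 or 2 of the MEF arrays. Of the 40 other p53 targets, 3 were higher (7.5%, against 16.6%) and 10 lower (25%, against 16.3%), with a median of -0.05, and the lower ones included the death receptor gene Fas (-2.96), Cgrrf1 (-2.31), the tetraspanin gene Cd82 (-2.27) and Plk2 (-2.18). Fas had 37.25 units in 2i ESCs and 40.22 units in S ESCs, against 307.6 units on every MEF array, and Cgrrf1 had 75.6 and 141.5 units in the ESCs. These ESC values lay under the floor, so the sizes of both differences are uncertain and have no order, and the MEF values of Fas add no spread to its test. Without the 2i ESC array 5 of these targets were called lower and 1 higher, and without the S ESC array 4 lower and 1 higher. Proliferation markers moved with the checkpoint genes, 7 of 11 being higher in ESCs (median 1.34) with none lower, and their part was not tested.

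At the Cdkn2 locus the neighbouring inhibitors had unlike patterns. Cdkn2b (Entrez Gene 12579) had 289.6 units in 2i ESCs and 280.4 units in S ESCs, both near the floor, against 1777 units in 4n, 2627 units in 2n and 2343 units in control MEFs. The ESC and MEF values did not overlap, and the 4n array was the lowest MEF array (log2 difference -0.56 from 2n and -0.40 from control MEFs). Cdkn2a (Entrez Gene 12578) had 481.2 units in 2i ESCs and 223.8 units in S ESCs, where it was under the floor. It had 431.2 units on each MEF array. In limma its difference between ESCs and MEFs was -0.39 ± 0.34 (SE, adjusted p = 0.368), where the MEF arrays add no spread. Without the S ESC array this difference was 0.16 and without the 2i ESC array -0.94, under 2-fold in each case. These fits keep 1 ESC array beside identical MEF values, so they hold no spread of the gene and their p is not given. Of all genes tested, 12.9% were likewise identical on all 3 MEF arrays.

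Of the neighbours of Cdkn2a on chromosome 4, the polyamine salvage gene Mtap was past the floor, with 1324 units in 4n, 2003 units in 2n and 1982 units in control MEFs, and 1344 and 1041 units in 2i and S ESCs. The other 3 neighbours listed (Dmrta1, Ifna2 and Ifnb1) lay under the floor on all arrays. Of 7 other genes listed with the cyclin-dependent kinase inhibitors, 1 was higher in ESCs and 1 lower (14.3% each, against 16.6% and 16.3% of all genes), shares near those of all genes. The higher one was Cdkn2aipnl (1.51), named for its likeness to a protein that binds p19Arf, and the lower one Cdkn2c (-1.49), the p18 relative of Cdkn2b, which was under the floor on both ESC arrays. Cdkn1b, the p27 gene, differed most among the MEFs, at 2589 units in 4n, 1785 units in 2n and 1309 units in control MEFs, or 0.98 in log2 for 4n against control MEFs. None of the 7 listed genes differed by 2-fold in any MEF or ESC pair.

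Downstream of these inhibitors lie the D cyclins, CDK4, CDK6 and the RB proteins that they phosphorylate. A list of 18 genes held these together with E cyclins, Cdk2, Cdc25a, E2F factors, Tfdp1 and Skp2. Of the 18, 4 were higher in ESCs (22.2%, against 16.6% of all genes) and 1 lower (5.56%, against 16.3%). The higher ones were Cdc25a (1.53), Ccne1 (1.43), Cdk2 (1.31) and Skp2 (1.05), none of them a D cyclin, CDK4, CDK6 or RB gene, and the lower one was cyclin D2 (Ccnd2, -4.69). Cdk2 and Skp2 were named after their values were seen. Ccnd2 also was the 1 gene of the list with a 2-fold deficit in 2i ESCs (5.56%, against 2.54% of all genes). It had 167.5 units there, under the floor, against 750.9 units in S ESCs. It had 6747 to 11077 units on the MEF arrays, and the fibroblast markers lower in 2i ESCs moved with it, whose part was not tested. In 4n 2i MEFs cyclin D1 (Ccnd1) was lower than in 2n 2i MEFs (-1.12) and than in control MEFs (-1.47), and Cdk6 was lower than in control MEFs (-1.27). The list's median in these pairs was -0.51 and -0.27, against -0.04 and -0.01 over all genes.

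Genes known to act on the locus split between the cell types. Of 22 tested, 7 were higher in ESCs (31.8%, against 16.6%) and 6 lower (27.3%, against 16.3%). The polycomb gene Cbx7, which represses the locus, was higher in ESCs (3.68), while Ets1 (-2.75), an activator of Ink4a, Hmga2 (-2.72), known to repress the locus in neural stem cells, and Id1 (-2.43), an antagonist of Ets factors, were lower. Cbx7 had 200.9 units on all 3 MEF arrays and Ets1 132.6 and 112.4 units in 2i and S ESCs, all under the floor, as was Id1 in 2i ESCs, so the sizes of these differences are uncertain. Hmga2 also differed among the MEFs, at 2030 units in 4n, 4496 units in 2n and 6249 units in control MEFs. It was the 1 regulator at least 2-fold lower in 4n than in 2n 2i MEFs (-1.15), a share of 4.76%, against 2.36% of all genes. Relative to control MEFs Hmga2 (-1.62) and Id1 (-1.10) were at least 2-fold lower, beside 3.44% of all genes.

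The genes with patterns most like those of the Cdkn2 inhibitors were sought among 11826 genes, by the distance between log2 profiles centred on their mean over the 5 arrays. Nearest to Cdkn2b were Sox9 (distance 0.08), a cartilage and progenitor transcription factor, the adaptor gene Sh3kbp1 (0.17), Mrgprf (0.18), the focal adhesion gene Tes (0.21) and the cholesterol hydroxylase gene Ch25h (0.23). Nearest to Cdkn2a were Tango2 (0.11), Nipa1 (0.18), Rab11fip5 (0.20), Slc49a4 (0.21) and Tex264 (0.22). With 5 arrays of 2 cell types such likeness is only a description.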

How the data were processed

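Column-purified total RNA of the 5 samples was fragmented and labelled with biotin for Affymetrix arrays, according to the labels' protocols. The deposited values are linear intensity units for 28853 probe sets. Their background correction, probe set summary and normalization by the authors are not given in the sources used here, and no scanner files or detection calls were used. Column medians ran from 170.2 to 192.0 units.

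Probe sets of 1 gene (21789) were named from the platform table, with symbols updated through RefSeq (21698 matched). The brightest probe set of a gene was used. Values were analysed as log2(value + 1). A gene entered a pair when its brighter array reached that array's floor, and the limma comparison when any array did. Pairs of arrays were compared at 2-fold with no test. ESC and MEF arrays were fitted in limma (lmFit, eBayes, Benjamini-Hochberg, 3 residual degrees of freedom), a step tested on simulated data. The rule for naming took all members, at most 4 genes of each other list per comparison, and the 5 nearest profiles. Alternatives were the floor (none, 75th percentile), quantile normalization, mean of probe sets, a pseudocount of 16, a 3-fold threshold, a trended robust prior, distinct MEF values and leaving out each array. The members and lists were chosen with earlier results of these data known. Sequences came from RefSeq. R 4.3.3, limma 3.58.1, Python 3.11.15, numpy 2.4.6, pandas 2.3.3 and matplotlib 3.10.9 were used.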

Additional observations from a re-analysis of the deposited data

How the results depend on the processing

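No paired analysis was possible because each group had 1 array. Of 280 values of single genes under the alternatives, 277 kept their side of the threshold, and none that passed it changed sign. The exceptions were Perp and Cdkn2a in 2i against S ESCs and Perp in 4n against 2n 2i MEFs, all at 3-fold. For pairs of arrays part of this agreement was fixed in advance. Each of these genes had 1 probe set, so the mean of probe sets returned the main value. A change of floor can drop a gene from a pair but cannot change its difference. At 3-fold, the counts of the 8 genes were 0 higher and 0 lower in 2i against S ESCs and 1 lower in 4n against 2n 2i MEFs, and the counts of other p53 targets were 0 in every pair and direction. Over all genes the 3-fold counts, higher and lower, were 95 and 87 (2i against S ESCs), 153 and 51 (4n against 2n), 273 and 105 (4n against control) and 45 and 8 (2n against control). With the floor at the 75th percentile, which leaves fewer genes tested, the corresponding 2-fold counts were 120 and 85, 177 and 130, 274 and 231, and 52 and 28. Cdkn2a then dropped out, leaving 0 of the 8 genes higher in 2i ESCs, and in ESCs against MEFs 1126 genes were higher and 5 other p53 targets lower. Quantile normalization and a pseudocount of 16 each left 0 other p53 targets lower in 2i ESCs. With distinct MEF values only, 1031 genes were higher in ESCs and 1 of the 8 genes (Cdkn2b) was lower, since Phlda3 and Cdkn2a have identical MEF values. Leaving out each array gave 2 of the 8 genes lower in ESCs each time, and between 1 and 4 other p53 targets higher and between 4 and 10 lower. A fit without 1 ESC array assumes that the remaining one varies like the MEF arrays. Signal over background could not be judged without detection calls, so values near the floor, such as Cdkn2b in ESCs and Cdkn2a, hold an unknown part of background.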
